A study of Mus musculus with 6 samples.

Results

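Ccl8-high border macrophages of mouse gliomas were chosen from raw counts of unique molecular identifiers (UMIs, 1 per captured RNA molecule) by a rule on 26 genes. A barcode was taken as a border macrophage where the sum B of Mrc1, Pf4, Cbr2, Cd163 and Lyve1 was at least 3, exceeded the summed UMIs of 6 microglia markers (M) and of 5 monocyte-derived markers (D), and at most 1 UMI came from 6 lymphoid markers (L). It was Ccl8-high where the sum of Ccl8, Gbp2b, Dnase1l3 and Pla2g2d, called E here, reached 5, and Ccl8-low where E was at most 2. The rule took 526 of the 17089 barcodes kept in the series, and these 526 were among the 743 border macrophages of the 4 tumour libraries. The rest of the 743 were 171 Ccl8-low cells and 46 cells with an E of 3 or 4, which entered neither class. There were 43 and 30 Ccl8-high cells in the libraries of control tumours, and 320 and 133 in those of Rbpj-deleted tumours. The same libraries held 25, 11, 46 and 89 Ccl8-low cells.

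The study profiled CD45+ immune cells, sorted by flow cytometry from mouse brain, with 10x Genomics 3' v3 chemistry. There were 6 libraries, 2 each of healthy brain (trp53 wt, rbpj wt), control tumours (trp53 ko, rbpj wt) and Rbpj-deleted tumours (trp53 ko, rbpj ko). The tumours were early gliomas found through GFP of the Rosa-CAG::GFP Cre-reporter and micro-dissected. Both tumour groups lack Trp53, healthy brain does not, and strain, age and the promoter driving Cre are not given in the sources used here. Material was pooled from 9 brains (healthy), 15 tumours (control) and 9 tumours (Rbpj-deleted) per the series design, although the extraction protocol has the cells of each mouse in a single well, so p-values measure the spread between libraries, which may be technical in part. The comparison of Rbpj-deleted with control tumours asks how deletion of Rbpj, the DNA-binding factor through which Notch receptors act, goes with the state of these immune cells. The ko label refers to the tumour genotype, so Rbpj RNA in sorted immune cells does not check it. Rbpj stood at 107 and 121 CPM (the UMIs of a gene scaled to a common total) in control and 105 and 64.8 CPM in Rbpj-deleted Ccl8-high cells, a log2 difference of -0.46 ± 0.31 (SE, edgeR adjusted p = 0.879).

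Border macrophages live in the meninges, the perivascular spaces and the choroid plexus, and are told from microglia by scavenger and lectin receptors such as CD163, LYVE1 and the mannose receptor MRC1. Ccl8 encodes a chemokine that attracts monocytes and lymphocytes. Gbp2b encodes a guanylate-binding protein, a family of large GTPases induced by interferon-gamma, Dnase1l3 a secreted nuclease that digests chromatin outside cells, and Pla2g2d a secreted phospholipase A2 known in macrophages and dendritic cells of lymphoid tissue. Genes induced by interferon-gamma often carry GAS elements at their promoters, and genes induced by type I interferon often carry ISRE elements.

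The start regions of 4 genes are printed because Ccl8 and Gbp2b name the population and Gbp2 and Gbp5 belong to the gene family that was higher in it. Each runs from 250 bases before to 50 bases after the annotated start, 5' to 3' on the gene's strand, from RefSeq on GRCm38.p6, and capitals mark matches to TTCNNNGAA (GAS) or to TTTC repeated after any 2 bases (ISRE), searched on both strands. Ccl8 lies at chr11:82114935-82115234, Gbp2b at chr3:142594597-142594896, Gbp2 at chr3:142620413-142620712 and Gbp5 at chr3:142496684-142496983, all on the plus strand.
Ccl8: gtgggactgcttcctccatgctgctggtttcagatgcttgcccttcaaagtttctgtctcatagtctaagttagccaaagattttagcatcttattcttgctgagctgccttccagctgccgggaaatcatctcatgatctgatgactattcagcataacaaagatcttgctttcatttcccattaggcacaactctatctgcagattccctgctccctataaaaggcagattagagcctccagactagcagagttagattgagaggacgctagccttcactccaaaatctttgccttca
Gbp2b: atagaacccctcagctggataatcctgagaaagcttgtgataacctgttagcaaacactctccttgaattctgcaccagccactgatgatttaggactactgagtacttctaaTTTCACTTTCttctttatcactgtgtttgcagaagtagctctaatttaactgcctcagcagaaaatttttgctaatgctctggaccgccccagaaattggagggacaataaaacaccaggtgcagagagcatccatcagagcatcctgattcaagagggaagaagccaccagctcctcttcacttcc
Gbp2: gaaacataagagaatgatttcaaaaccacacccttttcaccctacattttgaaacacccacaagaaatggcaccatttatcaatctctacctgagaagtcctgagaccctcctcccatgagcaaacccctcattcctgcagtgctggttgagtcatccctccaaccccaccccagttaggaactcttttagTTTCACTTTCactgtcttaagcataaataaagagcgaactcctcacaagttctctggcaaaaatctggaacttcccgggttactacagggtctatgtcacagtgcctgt
Gbp5: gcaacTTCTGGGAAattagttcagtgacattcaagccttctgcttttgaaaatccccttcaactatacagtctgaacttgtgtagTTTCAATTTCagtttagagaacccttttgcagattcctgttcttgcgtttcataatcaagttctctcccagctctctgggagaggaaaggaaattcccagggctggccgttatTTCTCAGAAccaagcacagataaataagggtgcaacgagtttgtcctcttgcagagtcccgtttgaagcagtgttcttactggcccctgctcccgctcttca
Gbp2b held 1 ISRE match that began 137 bases before the start, Gbp2 held 1 that began 59 bases before it, and Gbp5 held 1 ISRE and 2 GAS matches. Neither motif was found in these windows of Ccl8, Pla2g2d, Cxcl9, C3 and Cd274. Of the 32851 RefSeq start regions of 300 bases, 8.30% held a GAS match and 3.44% an ISRE match. Such matches thus also occur outside these genes and are given as a description of the letters.

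The 4 genes of the score were summed over the Ccl8-high cells of each library and divided by the summed counts of those cells. These levels follow from the rule and were not tested. Ccl8 stood at 12599 and 13731 CPM in control tumours and at 8631 and 5573 CPM in Rbpj-deleted tumours. In the 170 and 59 healthy border macrophages that met the same threshold it stood at 1657 and 3742 CPM, below all 4 tumour libraries. Gbp2b stood at 886 and 331 CPM in control tumours and at 283 and 370 CPM in Rbpj-deleted tumours, groups that overlapped. No Gbp2b UMI was found in the healthy cells that passed the threshold. Dnase1l3 stood at 1644 and 614 CPM in control tumours, 694 and 597 CPM in Rbpj-deleted tumours and 56.0 and 67.1 CPM in healthy brain. Its healthy values were below every tumour value, while the tumour groups overlapped. Pla2g2d stood at 314 and 170 CPM in control tumours, 228 and 151 CPM in Rbpj-deleted tumours and 139 and 159 CPM in healthy brain, so that here the healthy and tumour values overlapped too.

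**Figure D1:**
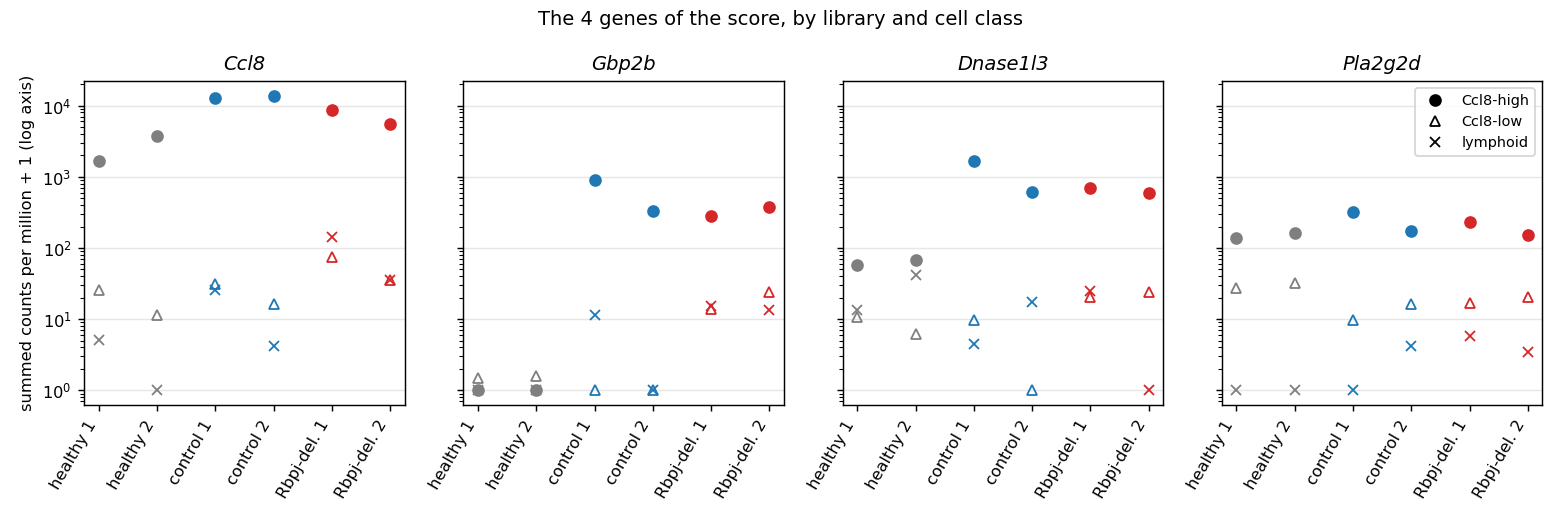
CPM plus 1 (log axis) of the 4 genes of the score, summed over the Ccl8-high (filled circles), Ccl8-low (open triangles) and lymphoid (crosses) cells of each library. Ccl8 and Dnase1l3 were lower in the Ccl8-high cells of both healthy libraries than in those of every tumour library, and Gbp2b was at 0 there.

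Cells differed in which of the 4 genes made up E. Ccl8 gave 86.6% of the E UMIs of all 526 cells. It was found in 500 of them (95.1%), and Gbp2b in 305 (58.0%). All 4 genes were found in 172 cells (32.7%), 3 of them in 181, 2 in 116 and only 1 in 57. Without Ccl8, the other 3 genes alone reached 5 UMIs in 346 cells. In healthy brain the cells over the threshold carried mostly 1 or 2 of the genes (69 and 83 of 170, 23 and 27 of 59), and none carried all 4. Ccl8 weighs most in the rule that chose the cells, so its presence in most of them follows from the rule.

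E was spread widely within a library. Its median was 123 and 105 UMIs in control tumours, 60 and 28 UMIs in Rbpj-deleted tumours, and 10.5 and 11 UMIs in healthy brain. The highest values were 1283, 1491, 1276 and 823 UMIs in the 4 tumour libraries. E was at least 100 in 23, 15, 118 and 28 tumour cells, and in 6 and 7 healthy cells. Near the threshold, an E of exactly 5 was found in 2, 0, 11 and 3 tumour cells and an E of exactly 4 in 1, 1, 8 and 10. Few tumour cells lay near the threshold, whereas in healthy brain 24 and 8 cells stood at exactly 5 and 34 and 4 cells at exactly 4.

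Depth went with the classes. The Ccl8-high cells had median totals of 15702, 14993.5, 10074 and 9757 counts in the 4 tumour libraries (control replicates first), against 7573, 3978, 4915 and 4850 counts in Ccl8-low cells. Cells were therefore also thinned to 3000 counts each, which left out 3, 2, 25 and 3 shallower Ccl8-high cells. After thinning, Ccl8 was found in 87.5%, 89.3%, 93.2% and 85.4% of Ccl8-high tumour cells (90.7%, 90.0%, 97.2% and 92.5% before). Lymphoid cells, which should lack Ccl8, carried it in 7.11%, 1.85%, 17.5% and 14.9% of cells (classed and thinned on 3000 counts). Thinned Gbp2b was found in 20 of 40, 10 of 28, 116 of 295 and 58 of 130 Ccl8-high cells (65.1%, 36.7%, 55.3% and 66.9% before) and in 4.74%, 1.85% and 5.26% of lymphoid cells, with none of 67 in Rbpj-deleted library 2. These genes chose the cells, so the lymphoid values only give the level outside them.

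The border macrophage label was checked on the 5 genes of B, which the rule used and which are given as a description. Mrc1 was found in 98.5% to 100% of Ccl8-high tumour cells per library and Pf4, a platelet factor also made by border macrophages, in 72.1% to 94.7%. Cbr2 was found in 46.5% to 56.7%, the hemoglobin receptor Cd163 in 37.2% to 60.6% and the hyaluronan receptor Lyve1 in 22.8% to 37.6%. All 5 were found in 106 of the 526 cells and at least 3 in 70.5%, while 37 cells rested on Mrc1 alone. The same threshold in healthy brain took cells of which 98.8% and 98.3% carried at least 3 of the 5. Lyve1 and Cd163 were therefore absent from many tumour cells that met the rule, and the name border macrophage rests on the rule rather than on the whole marker set. Markers of other cells were present beside these. The microglia marker Tmem119 was found in 6.98%, 23.3%, 33.1% and 19.5% of the cells and the monocyte-derived marker Ms4a4c in 20.9% and 45.1% of cells in control library 1 and Rbpj-deleted library 2 and in 18 of 30 and 160 of 320 cells of control library 2 and Rbpj-deleted library 1. The T cell genes Cd3e and Cd3d were found in at most 1.88% and 3.33% of cells in any tumour library. No doublet caller was run, and 50 of the 320 cells of Rbpj-deleted library 1 held over 2 times its median count. Of the 526 barcodes, 2 had a sequence that also occurred in another library.

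The share of border macrophages that were Ccl8-high did not separate the tumour groups. It was 62.3% (exact 95% binomial interval 49.8 to 73.7) and 71.4% (55.4 to 84.3) in control tumours, and 81.4% (77.2 to 85.2) and 55.6% (49.1 to 62.1) in Rbpj-deleted tumours. Rbpj-deleted tumours thus held both the highest and the lowest tumour share, and the groups overlapped. The means differed by 1.66 percentage points, Rbpj-deleted minus control, with an exact two-sided permutation p = 1, where 2 against 2 libraries cannot go below 0.333. Leaving out control library 1 or 2 gave -2.89 or 6.22 points, and leaving out Rbpj-deleted library 1 or 2 gave -11.2 or 14.6 points. In healthy brain the share was 20.7% and 19.0%. Where all cells were thinned to 3000 counts before the rule, the shares were 53.6% and 64.9% in control, 69.9% and 47.2% in Rbpj-deleted and 10.2% and 10.4% in healthy libraries. Every tumour library stayed above both healthy libraries. As a share of all barcodes kept, Ccl8-high cells made up 3.52% and 3.97% of control, 10.6% and 5.71% of Rbpj-deleted and 2.37% and 2.29% of healthy libraries, in dissected and sorted material. The intervals cover counting error only.

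**Figure D2:**
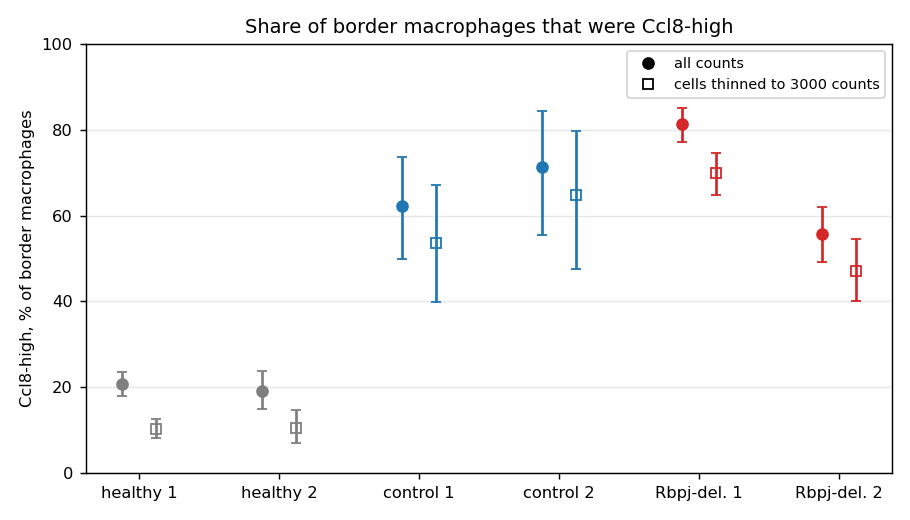
Percent of border macrophages that were Ccl8-high in each library, from all counts (filled circles) and after thinning each cell to 3000 counts (open squares), with exact 95% binomial intervals as bars. The tumour libraries lay between 55.6% and 81.4% and the healthy libraries at 20.7% and 19.0%.

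Ccl8-high cells were set against Ccl8-low border macrophages of the same tumours, with the library as a block. Classes were formed by E, so this comparison describes the cells the rule took and is not a test. The 26 genes of the rule were left out. Gbp2b, which E includes, belongs to the guanylate-binding proteins induced by interferon-gamma. Choosing cells by E can therefore raise other genes of that kind, so the list counts below only describe the chosen cells. Of 6462 genes compared, 59 (0.913%) passed an edgeR adjusted p under 0.05, 55 of them higher (0.851%) and 4 lower (0.0619%) in Ccl8-high cells, and nothing is read from these counts. The median log2 difference over all 6462 genes was -0.00, and leaving out Rbpj-deleted library 1 or 2 gave 18 or 31 genes. The Ccl8-low sum of control library 2 held only 11 cells, and that of control library 1 held 13044 CPM of a glial and tumour gene list, against 25.4 to 60.3 CPM in the other 3 tumour libraries.

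Among genes induced by interferon-gamma, 6 of 12 compared members were called higher and 0 lower (3 higher without control library 2), with a median log2 difference of 2.34. The share called higher over all genes compared was 0.851%. Cxcl9, a ligand of the T cell chemokine receptor CXCR3 (chromosome 5, 92321347 to 92328079), stood at 5771 and 2366 CPM in control and 1717 and 2938 CPM in Rbpj-deleted Ccl8-high cells. In Ccl8-low cells it stood at 69.1 and 102 CPM, and at 146 and 170 CPM. All 4 libraries were higher in Ccl8-high cells, with a log2 difference of 4.46 ± 0.53 (SE, edgeR adjusted p = 0.0474). Its call was lost with scaling by library totals (edgeR adjusted p = 0.0650) and where its highest cell was lowered to the second highest (0.141). The call was also lost without control library 2 (log2 4.47). Healthy Ccl8-high cells held 36.0 and 9.27 CPM, below the Ccl8-low cells of every tumour library. Healthy Ccl8-low cells held 3.04 and 0 CPM. Serpina3f, a serine protease inhibitor, stood at 332, 201, 95.6 and 86.1 CPM in Ccl8-high cells of the 4 tumour libraries and at 0, 0, 15.9 and 7.83 CPM in Ccl8-low cells (log2 4.08 ± 0.56). Its transcripts share 27.3% of their 31-base words with other genes, most with Serpina3g. Socs1, which restrains the pathway, stood at 35.7, 93.7, 45.6 and 62.5 CPM against 0, 0, 6.35 and 17.6 CPM. For each of these genes the 4 Ccl8-high values lay above all 4 Ccl8-low values.

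Of 7 guanylate-binding proteins outside the score that were compared, 5 were called higher and 0 lower (3 higher with either Rbpj-deleted library left out), with a median of 1.61. Over all genes compared 0.851% were called higher, and Gbp2b of this family helped to choose the cells. Gbp2 stood at 575, 578, 397 and 837 CPM in Ccl8-high cells and at 154, 76.2, 168 and 311 CPM in Ccl8-low cells (log2 1.61 ± 0.22). Gbp5, which helps inflammasome assembly, stood at 327, 146, 152 and 226 CPM against 77.2, 25.4, 38.1 and 64.6 CPM (log2 1.91 ± 0.22). Both were higher in Ccl8-high cells of each tumour library, and both are printed above with their ISRE matches. Gbp4 was also higher (log2 2.56 ± 0.40). In healthy Ccl8-high cells Gbp2 stood at 16.5 and 37.1 CPM and Gbp5 at 13.6 and 35.8 CPM. Of 23 genes induced by type I interferon, 1 was called higher and 0 lower, with a median of 0.46. That gene was Irf7, an amplifier of the response, at 274, 421, 490 and 646 CPM against 77.2, 76.2, 219 and 341 CPM (log2 1.32 ± 0.23). Isg15 differed by 1.29 ± 0.30 and Zbp1, a nucleic acid sensor, by 0.87 ± 0.21, neither of them called.

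RNA of T and NK cells moved with these genes. The summed T and NK list stood at 1278, 697, 1805 and 2057 CPM in Ccl8-high and at 1252, 102, 901 and 924 CPM in Ccl8-low cells. Of its 15 members 2 were compared, Ccl5 (log2 1.01 ± 0.54) and Cd4 (log2 1.10 ± 0.37), and neither was called. The part of that RNA in the differences was not tested.

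Antigen presentation genes lay on the same side. Of 17 class I genes, 6 were called higher and 0 lower, all 17 had a positive difference, and the median was 0.71. Over all 6462 genes compared, 0.851% were called higher and 3228 had a positive difference. The class I heavy chain H2-K1 stood at 5585, 6352, 4885 and 5346 CPM against 2089, 3379, 3231 and 3509 CPM (log2 0.78 ± 0.16). The immunoproteasome subunits Psmb8 and Psmb9 differed by 0.78 ± 0.16 and 0.94 ± 0.18. H2-K1 and H2-D1 share words of sequence with other class I genes (22.8% and 26.7%), so their counts are uncertain. No class I gene was called once control library 2 or either Rbpj-deleted library was left out, and 3 were called once control library 1 was. Of 9 class II genes, 1 was called higher and 0 lower, all 9 were positive and the median was 0.99. That gene was H2-Eb1 (log2 0.94 ± 0.21), whose call was lost with library totals, DESeq2, a threshold of 8 for E and without control library 1 or either Rbpj-deleted library, while 3 class II genes were called without control library 1 and 0 with either Rbpj-deleted library left out. The summed class II level was 55426 and 51945 CPM in control and 51535 and 42180 CPM in Rbpj-deleted Ccl8-high cells, against 5931, 24869, 29251 and 24128 CPM in Ccl8-low cells. Healthy Ccl8-high cells held 5175 and 6314 CPM.

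Complement and signalling genes followed in smaller number. For the list counts here, the share called higher over all genes compared was again 0.851%. Of 12 complement genes, 3 were called higher and 0 lower (1 higher without control library 2), with a median of 0.52. The central component C3 stood at 1885, 219, 445 and 329 CPM against 244, 38.1, 88.9 and 74.4 CPM (log2 2.41 ± 0.22). C4b stood at 623, 606, 604 and 318 CPM against 65.0, 203, 238 and 60.7 CPM (log2 1.99 ± 0.29), and 48.3% of its 31-base words also occur in other genes, most in C4a. C3 was higher in every library while its levels in control library 1 stood apart from the other 3. Serping1, the inhibitor of the first complement component, stood at 79.1, 36.6, 10.9 and 10.7 CPM and gave no UMI in Ccl8-low cells, so that it was at least 6.84-fold higher over the summed counts (3 counts as the floor). With Serping1 at that bound the median of the list is the same. C6, a membrane attack component outside that list, gave 441 UMIs against 2, a ratio of 37.7 with a counting interval of 10.4 to 312. Among checkpoint and costimulatory genes 3 of 11 were called higher and 0 lower, with a median of 0.11, and 1 was called without Rbpj-deleted library 1, where the calls of Cd40 and Il10 were lost. The Il10 call was also lost without either control library. They were Cd274, the ligand of PD-1 (log2 1.64 ± 0.25), Cd40, a costimulatory receptor (log2 2.04 ± 0.34), and Il10, an anti-inflammatory cytokine (333 UMIs against 2, ratio 28.5 with a counting interval of 7.82 to 236). Among chemokines 1 of 13 was called, Cxcl13, with 401 UMIs against 1, and Ccl7 differed by 1.04 ± 0.35 without being called.

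Some of what was higher came from few cells. Dcn, a proteoglycan of fibroblasts, had a log2 difference of 4.04 ± 0.46, but 91.8% of its UMIs in control library 1 came from 1 cell. The neutrophil gene S100a9 was found in 16 of the 526 cells, and 96.5% of its UMIs in control library 2 came from 1 cell. Saa3, an acute phase gene, was found in 53 cells and stood at 21.7, 2.29, 149 and 332 CPM. By contrast, Cxcl9 was found in 365 cells, C3 in 365 and Serpina3f in 236.

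The 4 genes called lower were Fcrls, Sox4, Itga6 and Lsp1. Fcrls, an Fc receptor-like gene of microglia and border macrophages, stood at 358, 526, 491 and 591 CPM in Ccl8-high cells and at 1724, 762, 1470 and 1485 CPM in Ccl8-low cells (log2 -1.55 ± 0.22). The classes did not overlap, and healthy Ccl8-high cells, at 2271 and 1577 CPM, lay near the tumour Ccl8-low cells. Sox4, a transcription factor, differed by -1.37 ± 0.25, the laminin receptor subunit Itga6 by -1.30 ± 0.26 and Lsp1, a leukocyte actin-binding protein, by -1.27 ± 0.27. None of the 4 was called without Rbpj-deleted library 1. Sox4 and Itga6 were not called without Rbpj-deleted library 2 either, nor Itga6 without control library 1. The Lsp1 call was lost without any one library, and its difference was -0.47 where its highest cell was lowered to the second highest. Of 23 border macrophage genes outside the rule, 0 were called in either direction, with a median of -0.28. Within that list Hpgd, which breaks down prostaglandins, differed by -1.11 ± 0.26 and Dab2, an endocytic adaptor, by -0.70 ± 0.17, neither called. Of 13 cell cycle genes 0 were called, 12 were negative, and the median was -0.85. The iron and heme list (9 genes) and the lipid list (14 genes) had no call, with medians of -0.03 and -0.30. The Notch list had 4 genes compared and none called, with Rbpj at -0.28 ± 0.21.

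**Figure D3:**
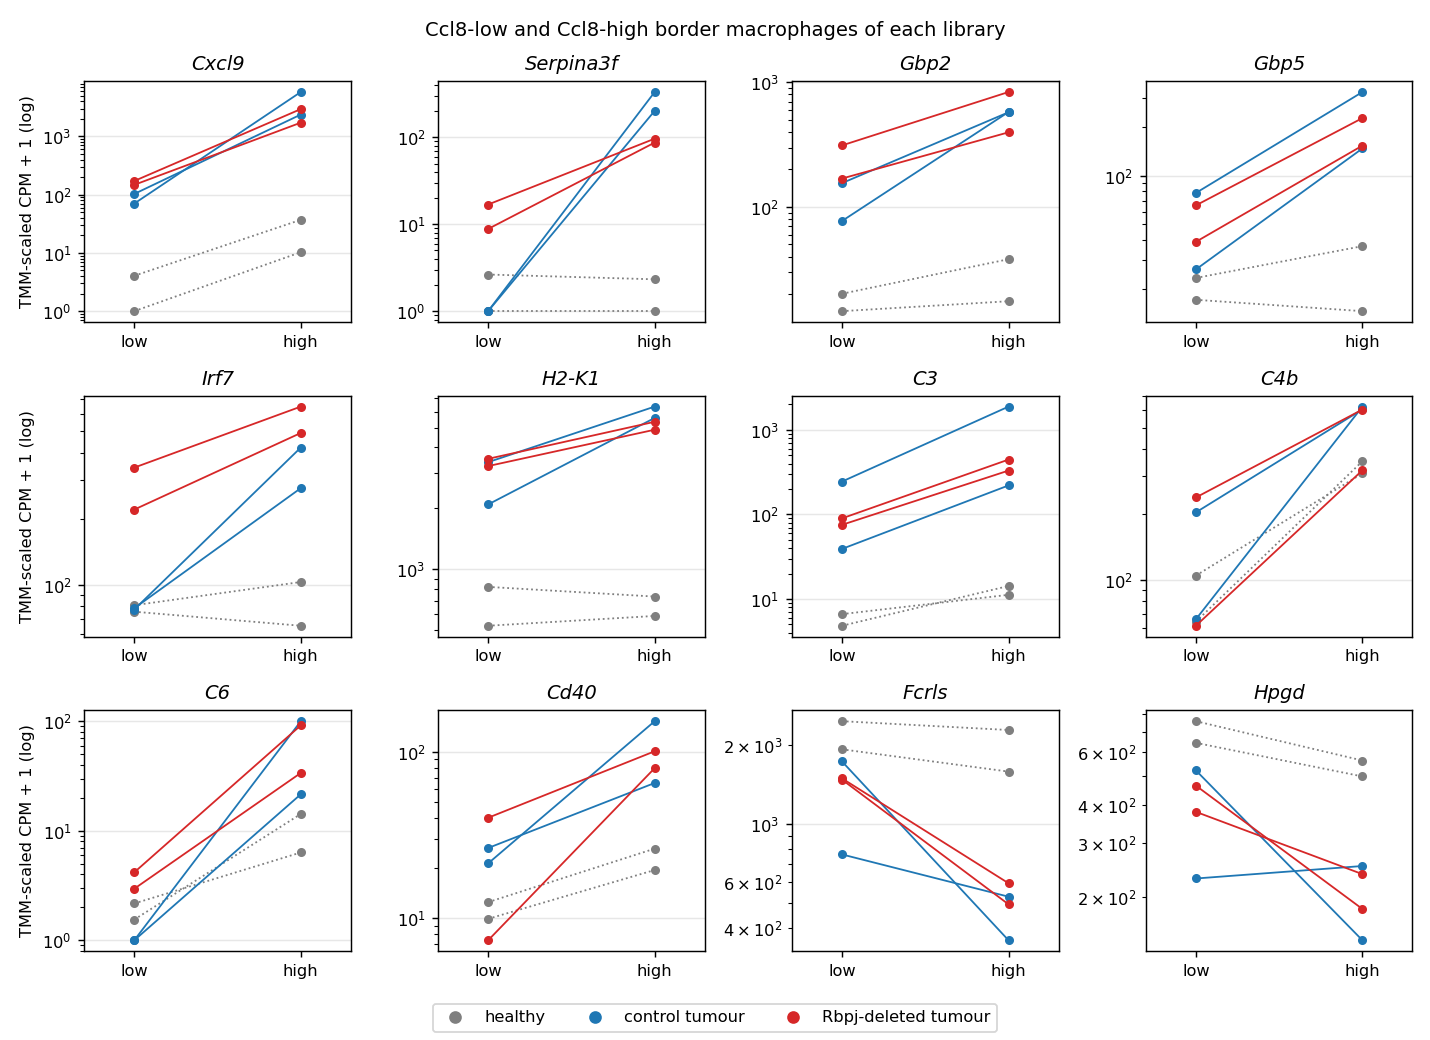
TMM-scaled CPM plus 1 (log axis) of 12 genes in Ccl8-low and Ccl8-high border macrophages; each line joins the 2 classes of 1 library, solid for tumours and dotted for healthy brain. Cxcl9, Gbp2, Gbp5, Irf7, C3 and C4b are higher and Fcrls is lower in Ccl8-high cells of all 4 tumour libraries, while Hpgd is lower in 3 of them.

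Levels of such genes were also followed within the Ccl8-high cells, split by E per 10000 counts into under 20, 20 to under 100, and 100 and over. Cells of 1 library share their source, so these are levels with no test. Cxcl9 stood at 83.3, 3478 and 8148 CPM over these ranges in control library 1 and at 294, 1752 and 3022 CPM in control library 2. It stood at 840, 1645 and 2128 CPM in Rbpj-deleted library 1 and at 1277, 3158 and 3902 CPM in Rbpj-deleted library 2. The level increased across the ranges in each tumour library, which did not hold for all genes. Gbp2 stood at 322, 399 and 350 CPM in Rbpj-deleted library 1 and at 583, 899 and 652 CPM in Rbpj-deleted library 2, highest in the middle range, while it increased throughout in both control libraries. Cd74 increased across the ranges in 3 libraries and decreased in control library 2, at 24677, 24321 and 18181 CPM. Fcrls stood at 871, 322 and 78.9 CPM and at 853, 360 and 197 CPM in the first libraries of the control and Rbpj-deleted groups, and at 770, 478 and 173 CPM in Rbpj-deleted library 2. In control library 2, whose lowest range held 5 cells, Fcrls stood at 374, 469 and 507 CPM and did not decrease.

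Rbpj-deleted and control tumours were then compared within Ccl8-high cells, over 4 library sums and 7570 genes. The test called 39 genes (0.515% of those tested), 20 higher (0.264%) and 19 lower (0.251%) in Rbpj-deleted tumours (edgeR quasi-likelihood, Benjamini-Hochberg adjusted p under 0.05). The libraries of the groups did not overlap for 36.8% of all genes tested, and the median log2 difference of all genes was 0.00. Leaving out control library 1 gave 73 genes, control library 2 gave 209 and Rbpj-deleted library 1 gave 61, and of the 39 calls 31, 36, 27 and 30 remained as each library, control first, was left out. Border macrophages of the healthy libraries, which carry neither deletion, differed between their 2 replicates for many of the same genes. Healthy replicate 2 was over 2-fold higher than replicate 1, in Ccl8-low cells, for 13 of the 20 higher genes. It was over 2-fold lower for 9 of the 19 lower genes. Of all genes tested, 5.15% (390 of 7570) differed by over 2-fold in either direction, which is a wider count. With a library term that pairs healthy replicate 1 with the control tumours and healthy replicate 2 with the Rbpj-deleted tumours, 5 genes were called, and 3 of the 39 were among them. Each tumour group lies wholly on 1 side of that split, so the genotype and the split cannot be told apart from the tumour libraries alone.

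**Figure D4:**
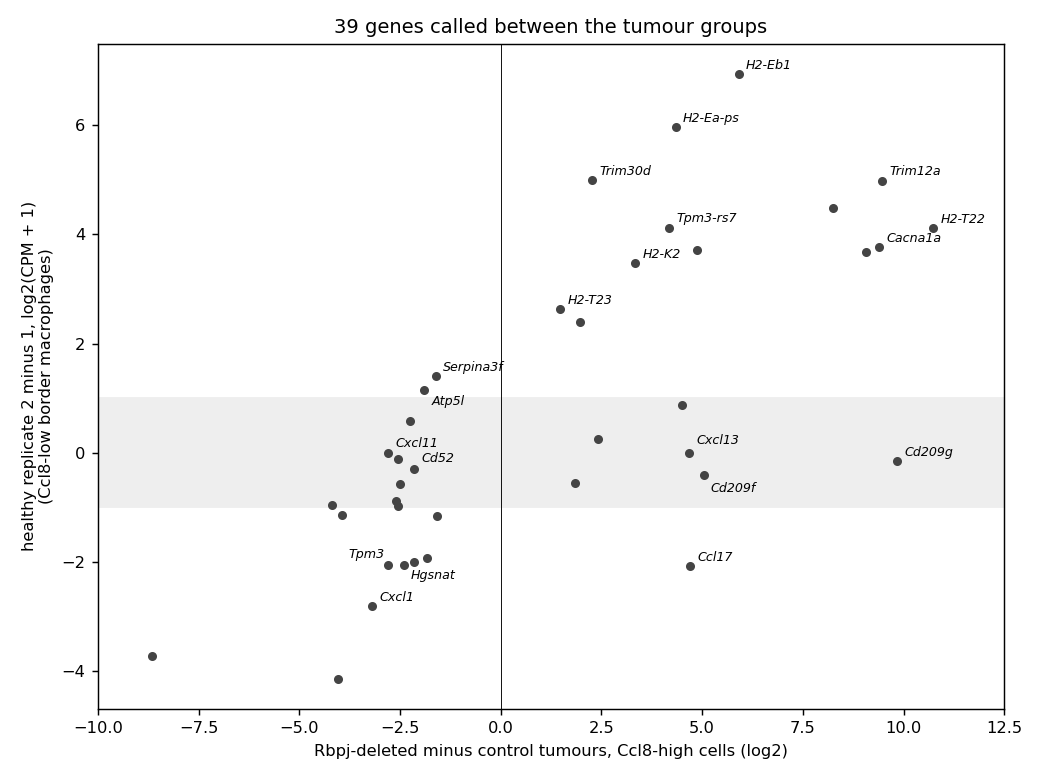
The 39 genes called between tumour groups in Ccl8-high cells, with the Rbpj-deleted minus control log2 difference on the x axis and the log2 difference between the healthy replicates (Ccl8-low cells, 2 minus 1, CPM + 1) on the y axis. The grey band marks less than a 2-fold healthy difference; 13 of the 20 higher genes lie above it and 9 of the 19 lower genes below it, while Cd52, Cd209f, Cd209g, Cxcl11 and Cxcl13 lie within it.

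Of the 20 genes that rose, 5 are histocompatibility genes of chromosome 17, and Msh5, a meiotic repair gene, lies among them (17, 35028605 to 35046745). Msh5, named here after its values were seen, gave no UMI in control and 27.4 and 22.9 CPM in Rbpj-deleted tumours, with 0.234 and 26.8 CPM in healthy Ccl8-low cells. H2-Eb1, a class II beta chain (17, 34305867 to 34316674), stood at 167 and 174 CPM in control and at 11815 and 9351 CPM in Rbpj-deleted tumours (log2 5.91 ± 0.33, adjusted p = 7.09e-08). In the Ccl8-low cells of the healthy replicates it stood at 9.84 and 1326 CPM, a difference of the same kind without either deletion. H2-T22, a nonclassical class I gene, gave no UMI in control and 147 and 140 CPM in Rbpj-deleted tumours, at least 53.5-fold higher over the group sums (3 counts as the floor), with 0.703 and 28.4 CPM in healthy Ccl8-low cells. H2-Ea-ps, H2-K2 and H2-T23 rose by 4.35 ± 0.32, 3.34 ± 0.34 and 1.47 ± 0.31 on the log2 scale, and each was also over 2-fold higher in healthy replicate 2. All 3 turned negative with the library term, as did H2-Eb1, and the call of H2-T23 was lost without control library 1 (log2 1.29). Of 17 class I genes tested 2 rose and 0 fell, with a median of -0.15, and of 9 class II genes 1 rose and 0 fell, with a median of -0.27. Cd74, the class II invariant chain, stood at 24173 and 23925 CPM in control and 16137 and 13480 CPM in Rbpj-deleted tumours (log2 -0.75 ± 0.24, adjusted p = 0.401). Trim12a and Trim30d, tripartite motif genes of chromosome 7, and Tpm3-rs7, a copy of Tpm3, were also called higher. Tpm3 itself was called lower, at 505 and 617 CPM in control and 85.5 and 80.8 CPM in Rbpj-deleted tumours. Tpm3-rs7 stood at 23.3 and 22.9 CPM against 378 and 491 CPM. It shares 78.6% of its 31-base words with other genes, most with Tpm3, so reads may be split between them. Each of these genes differed in the same direction between healthy replicates. Trim12a gave no UMI in control tumours and 60.7 and 57.9 CPM in Rbpj-deleted tumours, with 0 and 30.6 CPM in healthy Ccl8-low cells.

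Other called genes differed by less than 2-fold between the healthy replicates. Cd52, a small surface glycoprotein of leukocytes (chromosome 4, 134082448 to 134095082), stood at 875 and 720 CPM in control and at 145 and 232 CPM in Rbpj-deleted tumours. The groups did not overlap, and Cd52 fell by 2.14 ± 0.33 on the log2 scale (adjusted p = 0.0037). It was found in 315 of the 526 cells and stood at 116 and 94.0 CPM in healthy Ccl8-low cells. Its call was lost with the library term (log2 -1.84, adjusted p = 0.484) and in thinned cells (log2 -1.77, adjusted p = 0.137). Cd209f, a C-type lectin of the DC-SIGN family found on border macrophages, stood at 15.5 and 0 CPM in control and at 325 and 284 CPM in Rbpj-deleted tumours (log2 5.04 ± 0.65, adjusted p = 0.0141). Its neighbour Cd209g gave no UMI in control tumours and 95.3 and 57.9 CPM in Rbpj-deleted tumours, at least 31.4-fold higher. Both lectins were low or absent in the 73 control cells, whereas healthy Ccl8-high cells held 267 and 299 CPM of Cd209f. They share 760 words of 31 bases, 36.3% of those of Cd209f, so reads may be split between them. The Cd209f call was lost without either Rbpj-deleted library (log2 4.93 and 5.16), with DESeq2 (adjusted p = 0.430), with the library term (adjusted p = 0.109) and in thinned cells (log2 3.56, adjusted p = 0.0798), where the Cd209g call was lost too (adjusted p = 0.159). Of 24 border macrophage genes outside the rule, Cd209f was the only one called, and the list median was -0.08.

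Y-linked RNA differed between the tumour groups as well, in genes outside the naming rule and chosen after their values were seen. Ddx3y, a helicase gene of the Y chromosome, stood at 110 and 57.1 CPM in control and at 13.1 and 17.5 CPM in Rbpj-deleted tumours, and fell by 2.55 ± 0.38 on the log2 scale (adjusted p = 0.00298). Eif2s3y stood at 49.6 and 43.4 CPM against 9.23 and 11.4 CPM and fell by 2.25 ± 0.40 (adjusted p = 0.0121). The groups did not overlap for either gene, and healthy Ccl8-high cells held 60.2 and 67.6 CPM of Ddx3y. No label names the sex of the animals, so the mix of sexes and the genotype cannot be told apart.

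Chemokine genes were called in both directions. Of 13 tested, 2 rose and 3 fell, with a median of 0.04. Over all 7570 genes tested, 0.264% rose and 0.251% fell. Cxcl2, a neutrophil attractant, stood at 1414 and 1589 CPM in control and 592 and 283 CPM in Rbpj-deleted tumours (log2 -1.82 ± 0.36, adjusted p = 0.0418). Ccl2, a monocyte attractant, stood at 91.5 and 70.9 CPM against 31.6 and 23.6 CPM (log2 -1.58 ± 0.33, adjusted p = 0.0425). Cxcl1, a second neutrophil attractant, stood at 166 and 281 CPM against 33.5 and 13.7 CPM, but 63.6% and 72.4% of its control UMIs came from 1 cell of each library and its call was lost with that cell lowered to the second highest (adjusted p = 0.0851). All 3 were over 2-fold lower in healthy replicate 2 than in replicate 1. The Cxcl2 call was lost without Rbpj-deleted library 2 (log2 -1.37), and that of Ccl2 without that library or without control library 1 (log2 -1.39 and -1.38). The Cxcl2 and Ccl2 calls were also lost with library totals, at an E of at least 8, in thinned cells and with the library term. That of Ccl2 was lost with DESeq2 (adjusted p = 0.295). Those of Cxcl1 and Cxcl2 were lost with a stricter purity rule (edgeR adjusted p = 0.959 and 0.178). Ccl17, a ligand of CCR4, came from 246 UMIs in Rbpj-deleted and 2 in control tumours, in 15 and 4 cells of the Rbpj-deleted libraries (ratio 27.8, counting interval 7.61 to 231). Its call was lost at an E of at least 8 (edgeR adjusted p = 0.0758) and in thinned cells (0.507). Ccl17 stood at 48.6 and 54.9 CPM in Rbpj-deleted tumours and at 28.2 and 60.9 CPM in healthy Ccl8-high cells. Healthy Ccl8-low cells held 21.8 and 4.37 CPM, a replicate difference of the opposite sign. Dendritic cell RNA moved with Ccl17. Ccr7, the receptor of migrating dendritic cells, gave 442 UMIs in 24 and 3 Rbpj-deleted cells and 1 UMI in control tumours (ratio 99.8, counting interval 17.8 to 3950), and Cd209a gave 94 UMIs in 4 and 7 cells against 2 UMIs (ratio 10.6, counting interval 2.86 to 88.9). Cxcl13, which attracts B cells, came from 398 UMIs in 13 and 5 Rbpj-deleted cells and 3 UMIs in control tumours (ratio 29.9, counting interval 10.2 to 146). The Cxcl13 call was lost in thinned cells (log2 4.17, edgeR adjusted p = 0.183) and with the library term. These counting intervals treat each UMI as independent, while the UMIs came from few cells. They therefore do not cover the spread between cells or libraries. Ccl5, an attractant of T cells, stood at 1169 and 610 CPM in control and 1671 and 1992 CPM in Rbpj-deleted tumours (log2 0.99 ± 0.33, adjusted p = 0.416).

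Genes induced by interferon-gamma were mostly on the lower side in Rbpj-deleted tumours, and few were called. Of 14 tested, 0 rose and 2 fell, 13 were negative, and the median was -0.63, while 3753 of all 7570 genes were negative. Serpina3f stood at 332 and 201 CPM in control and at 95.6 and 86.1 CPM in Rbpj-deleted tumours (log2 -1.60 ± 0.31, adjusted p = 0.0258), with a healthy difference of the opposite sign at 0 and 1.64 CPM. Its call was lost once control library 1 or either Rbpj-deleted library was left out (log2 -1.19, -1.68 and -1.51). The Serpina3f call was also lost in thinned cells (log2 -1.04, edgeR adjusted p = 0.822) and with the library term (0.247). Cxcl11, a further CXCR3 ligand, stood at 60.5 and 43.4 CPM against 10.6 and 3.05 CPM (log2 -2.79 ± 0.48, adjusted p = 0.0141). It was found in only 29 of the 526 cells, and its call was lost where the highest cell of each gene was lowered to the second highest (adjusted p = 0.0703). The Cxcl11 call was also lost with a stricter purity rule (log2 -2.41, edgeR adjusted p = 0.694) and with the library term. Of 9 guanylate-binding proteins tested 0 were called, 8 were negative, and the median was -0.43. Gbp4 stood at 118 and 59.4 CPM in control and 26.6 and 41.9 CPM in Rbpj-deleted tumours (log2 -1.48 ± 0.37, adjusted p = 0.169). Iigp1, an immunity-related GTPase, stood at 800 and 1259 CPM against 513 and 659 CPM (log2 -0.87 ± 0.32, adjusted p = 0.499), and Il18bp, a decoy for interleukin 18, at 392 and 343 CPM against 133 and 222 CPM (log2 -1.11 ± 0.32, adjusted p = 0.28). Of 23 genes induced by type I interferon 0 were called, with a median of 0.12. E was higher in control Ccl8-high cells, with medians of 123 and 105 UMIs against 60 and 28. Under 20 E UMIs per 10000 counts (11 and 5 control cells), Cxcl9 stood at 83.3 and 294 against 840 and 1277 CPM. Gbp2 stood at 192 and 227 against 322 and 583 CPM there, while Gbp5 and Il18bp overlapped. At 100 and over, Gbp2 stood at 658 and 655 against 350 and 652 CPM, and Cxcl9 overlapped. The part of E in these differences was not tested.

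Complement and the remaining lists gave few calls. Of 12 complement genes 0 rose and 2 fell, with a median of -0.34. Serping1 stood at 79.1 and 36.6 CPM in control and 10.9 and 10.7 CPM in Rbpj-deleted tumours (log2 -2.49 ± 0.42, adjusted p = 0.00824), in 45 of the 526 cells. C2, which is cleaved to form the classical convertase, fell by 2.60 ± 0.48 on the log2 scale (adjusted p = 0.018), and 40.8% of its words occur in other genes. It lies on chromosome 17 (34862604 to 34898265), between H2-Eb1 and Msh5, and stood at 11.9 and 6.01 CPM in healthy Ccl8-low cells. The call of Serping1 was lost without control library 1 and without Rbpj-deleted library 1 (log2 -1.80 and -2.50), and that of C2 without control library 2 and without Rbpj-deleted library 1 (log2 -1.85 and -2.51). Both calls were also lost with the library term. The C2 call was lost at an E of at least 8 (edgeR adjusted p = 0.0524) and in thinned cells (0.386). That of Serping1 was lost with its highest cell lowered to the second highest (edgeR adjusted p = 0.137). C1qa, a recognition component made by macrophages, stood at 10888 and 13447 CPM against 14779 and 18649 CPM (log2 0.41 ± 0.26, adjusted p = 0.871). Of 7 Notch pathway genes 0 were called, with a median of -0.36, and Notch2 stood at -0.82 ± 0.31 (adjusted p = 0.506). All 18 dissociation and stress genes were negative with 0 called and a median of -0.46, and their summed level was 25572 and 30005 CPM in control and 27817 and 14720 CPM in Rbpj-deleted tumours. Cell cycle genes had 0 of 14 called and a median of 0.67.

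Markers of other cells moved with some of these values. The T and NK list summed to 1278 and 697 CPM in control and 1805 and 2057 CPM in Rbpj-deleted Ccl8-high cells, of which 2 of 15 members passed the filter on low counts and 0 were called. Of the B and plasma list 3 of 10 members were tested and 1, Cd79b, rose (log2 1.84 ± 0.39, adjusted p = 0.0484), at 20.2 and 13.7 CPM against 58.7 and 70.9 CPM. Its call was lost without control library 2 and without either Rbpj-deleted library (log2 1.64, 1.98 and 1.73). The Cd79b call was also lost with DESeq2 (adjusted p = 0.382). With edgeR it was lost in thinned cells (adjusted p = 0.822), at an E of at least 8 (0.0652) and with the library term (0.215). The dendritic list summed to 149 and 123 CPM in control and 246 and 147 CPM in Rbpj-deleted tumours, with 5 of 12 members tested, 0 called and a median of 0.81. The microglia list summed to 1293 and 4286 CPM in control and 4434 and 3169 CPM in Rbpj-deleted tumours, with 0 of 7 called. The vascular, choroid plexus and erythroid list summed to 659, 70.9, 60.4 and 32.8 CPM, highest in control library 1. Median depth was higher in control than in Rbpj-deleted Ccl8-high cells, and with all cells thinned to 3000 counts 9 genes were called among 3734 tested. The part of these differences in the calls was not tested.

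Whether the genotype difference itself differed between Ccl8-high and Ccl8-low cells was tested as an interaction over 8 sums. Of 6462 genes 2 were called (0.031%), 1 in each direction (0.0155% each), with 365 at an unadjusted p under 0.05. Cd209f gave an interaction of 6.78 ± 0.75 on the log2 scale (adjusted p = 0.0410). It stood at 183 and 0 CPM in control and 12.7 and 47.0 CPM in Rbpj-deleted Ccl8-low cells, beside the high values in Rbpj-deleted Ccl8-high cells given above. Itgax, the integrin alpha chain CD11c (chromosome 7, 128129547 to 128150657), gave -4.12 ± 0.54 (adjusted p = 0.0456). Itgax stood at 195 and 36.6 CPM in control Ccl8-high and 28.5 and 0 CPM in control Ccl8-low cells, and at 66.3 and 22.1 CPM against 152 and 54.8 CPM in Rbpj-deleted tumours. It was thus higher in Ccl8-high cells of both control libraries and lower in those of both Rbpj-deleted libraries. Among uncalled genes of smallest p, Lgals3 (a galectin), Calhm6, Psap (a lysosomal saposin precursor) and Gm2a (a lysosomal lipid carrier) gave -2.58 ± 0.43, -3.17 ± 0.57, -1.54 ± 0.28 and -1.79 ± 0.32, and Syt11 gave 3.92 ± 0.68 (adjusted p = 0.201 for each). Lgals3 and Psap were called in thinned cells and where the highest cell was lowered to the second highest. The 45 Cd209f UMIs of control library 1 came from 2 Ccl8-low cells, and without that library neither gene was called, while 51 others were. The Itgax call was also lost with library totals (adjusted p = 0.0590), DESeq2 (0.173), a stricter purity rule (log2 -3.09, 0.569), thinning (0.100) and without Rbpj-deleted library 2 (0.126). Leaving out control library 2 gave 348 genes, and leaving out Rbpj-deleted library 1 or 2 gave 9 or 1.

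Healthy cells over the same threshold differed from the tumour cells in what accompanied Ccl8. These shares describe cells of single libraries and were not tested. Cxcl9 was found in 58.1% and 70.0% of Ccl8-high cells of control tumours and in 69.7% and 72.2% of those of Rbpj-deleted tumours, but in 1.76% and 3.39% of those of healthy brain. It was found in 3 of 25, 2 of 11, 15 of 46 and 19 of 89 Ccl8-low tumour cells, and in lymphoid cells of the same libraries at 7.27%, 7.50%, 11.5% and 9.71%. Rnase2a, a secreted ribonuclease of the eosinophil-associated family, was found in 17.6% and 18.6% of healthy Ccl8-high cells. Its share was 11.6% and 6.67% in control and 5.94% and 4.51% in Rbpj-deleted Ccl8-high cells. In Ccl8-low cells it was found in 0.517% and 0.437% of healthy cells. Among tumour Ccl8-low cells it was found in 3 of 25, 0 of 11, 4 of 46 and 1 of 89. In the first library of each tumour group the Ccl8-low share (12% and 8.70%) was thus not below the Ccl8-high share. All 6 libraries had median totals between 9733.5 and 15702 counts in Ccl8-high cells. Ccl8-high cells with both RNAs numbered 0 and 0 in healthy, 4 and 1 in control and 9 and 4 in Rbpj-deleted libraries.

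**Figure D5:**
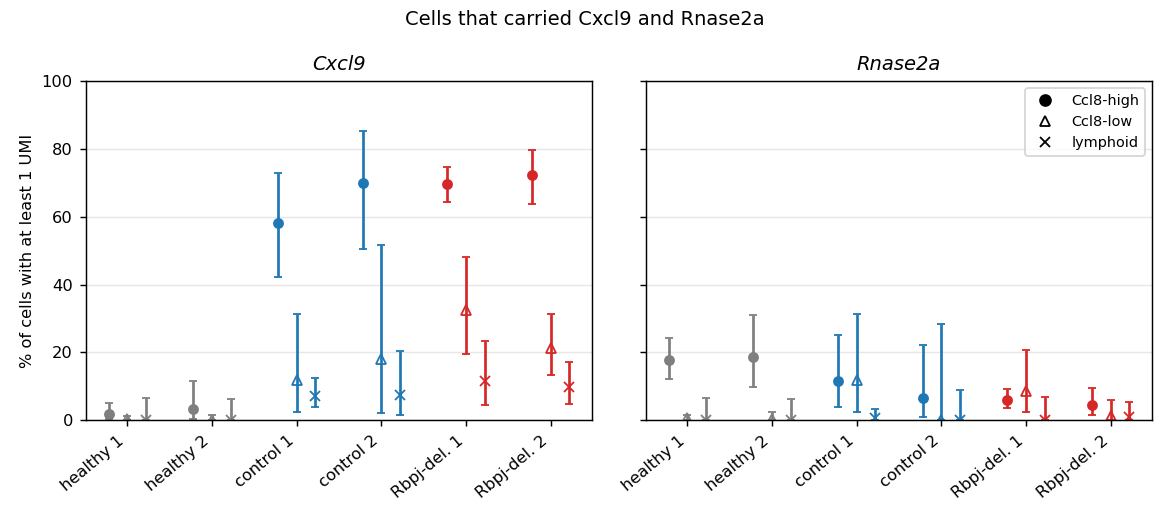
Percent of cells with at least 1 UMI of Cxcl9 or Rnase2a, by library and cell class, with exact 95% binomial intervals as bars. Cxcl9 was found in 58.1% to 72.2% of Ccl8-high tumour cells and in 1.76% and 3.39% of healthy ones, and Rnase2a in 17.6% and 18.6% of healthy and 4.51% to 11.6% of tumour cells.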

How the data were processed

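Libraries of 10x Genomics 3' chemistry were processed to UMI counts with tools that include kallisto 0.46.0 and bustools 0.39.3 on mm10, per the submitters' processing notes, which give no roles. The deposited counts are whole and not normalized. Of 17362 barcodes, 256 copies of barcodes shared with a far deeper copy in another library and 17 with under 500 genes or over 10% mitochondrial counts were removed, leaving 17089, with library totals of 17430763 to 55229031 counts. Counts were summed per library and class and tested with edgeR 4.0.16 (R 4.3.3; quasi-likelihood, TMM, filterByExpr, Benjamini-Hochberg threshold 0.05); CPM values of single genes outside the score are TMM-scaled. The genotype comparison used 4 sums, the class comparison added the library as a block, and their interaction used 8 sums with residual degrees of freedom of 2, 3 and 2. DESeq2 1.42.0, library totals, no filter, other thresholds, thinning and left-out libraries were alternatives. Healthy libraries entered no test except the library term; their values are printed because they held 170 and 59 cells over the threshold, more than the design had assumed. Named genes were up to 12 called rises and 12 falls per comparison with at least 50 CPM and no overlap of libraries, and up to 3 genes of smallest p per list with at least 20 CPM. Members, the 28 lists and these rules were chosen with earlier results of these data known. Intervals are exact (Clopper-Pearson) and cover counting error only. Those of UMI ratios treat each UMI as independent, also where several came from 1 cell. Shared sequence was counted in 31-base words of GENCODE vM21 transcripts. The scripts were tested on simulated data. The values of 1 list member are not reported here.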

Additional observations from a re-analysis of the deposited data

Results flagged for a closer look

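The genotype difference itself differed between Ccl8-high and Ccl8-low cells for Cd209f (interaction 6.78 on the log2 scale, edgeR adjusted p = 0.0410) and Itgax (-4.12, adjusted p = 0.0456). The Itgax call was lost under 6 alternatives, at adjusted p from 0.0590 to 0.569, and the Cd209f call was lost without control library 1. The Ccl8-high minus Ccl8-low difference of Cd209f, on the log2(CPM + 1) scale, was -3.48 and 0 in control and 4.57 and 2.57 in Rbpj-deleted libraries. That of Itgax was 2.74 and 5.23 in control and -1.19 and -1.27 in Rbpj-deleted libraries.

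For 6 further genes the difference between the classes had 1 sign in both control libraries and the other sign in both Rbpj-deleted libraries. This opposition of signs was not tested as such, and none of the 6 was called by the edgeR interaction over all 8 sums. Only named genes were searched for it. The share of all genes with such a pattern was not counted, so nothing is read from the number. Retnla, a secreted gene of alternative activation, gave 2.26 and 7.01 in control and -2.08 and -3.34 in Rbpj-deleted libraries, so the group means differed by -7.35 (Rbpj-deleted minus control), and 99.1% of its UMIs in Ccl8-high cells of control library 2 came from 1 cell. Its interaction, with an adjusted p = 0.628, was called with the highest cell lowered to the second highest (-5.54, adjusted p = 6.44e-05), in thinned cells (-5.64), by DESeq2 (-6.70) and without control library 1, control library 2 or Rbpj-deleted library 1 (-9.52, -4.78 and -6.82). Axl, a receptor for dying cells, gave 1.83 and 1.37 against -0.11 and -0.64, a difference of -1.97. Lgals3 gave 2.29 and 0.94 against -0.81 and -0.43, a difference of -2.24, and its interaction was called with no filter, in thinned cells, with the highest cell lowered (-2.63, -2.85 and -4.49) and without control library 2 (-2.94). Gm2a gave 1.72 and 1.66 against -0.13 and -0.10, a difference of -1.81. The interactions of Axl and Gm2a were called with no filter and without control library 2. Cd79b, a B cell receptor component, gave -0.48 and -1.41 against 1.18 and 0.27, a difference of 1.67. Atp5l, a subunit of the mitochondrial ATP synthase, gave 0.42 and 0.66 against -0.50 and -0.04, a difference of -0.81.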

How the results depend on the processing

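Rbpj-deleted against control tumours gave 39 called genes, and 123 with no filter on low counts, 9 in thinned cells, 5 with the library term and 37 to 209 as each library was left out. With the library term the log2 differences turned to 0.10 for Cxcl2, -1.69 for H2-Ea-ps, -1.16 for H2-Eb1, -0.36 for H2-K2, -1.20 for H2-T23, -0.0037 for Tpm3-rs7 and -3.53 for Trim30d. DESeq2 called 14 higher and 23 lower genes, against 20 and 19. Of the 39 calls, 30 remained with DESeq2, 33 with the stricter purity rule, 31 at an E of at least 8 and 9 in thinned cells. The replicate block called 45 genes, 36 of the 39 among them; replicate differences correlated at -0.0582 over 2896 genes, so the numbers do not pair the libraries. The class comparison gave 59 genes, and 283 with no filter, 35 in thinned cells, 11 with no library block, 8 in control tumours alone, 196 in Rbpj-deleted tumours alone and 18 to 54 as each library was left out. The interaction gave 2 genes, and 1 with library totals, 50 with no filter, 1 with a stricter purity rule, 7 in thinned cells, 8 with the highest cell of each gene lowered to the second highest (an alternative chosen after seeing the data) and 1 to 348 as each library was left out. The share difference of 1.66 points became -0.68 in thinned cells, -0.39 at an E of at least 8, 6.74 at an E of at least 3, 0.20 with the stricter purity rule, 2.42 with the rule alone and -11.2 to 14.6 (-2.89 without control library 1) as each library was left out. Library totals moved the median of all genes by 0.07 in the genotype comparison, -0.13 in the class comparison and 0.19 in the interaction. The causes were not tested. The other counts of called genes stayed within 1.5 times. With 2 libraries a group, and 11 cells in the smallest Ccl8-low sum, genes with few UMIs rest on few cells.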

Other observations

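In healthy brain, border macrophages with an E of at least 5 were set against those with an E of at most 2, as values without a test. Of 3299 genes with at least 50 CPM, 4 were over 2-fold higher in both libraries and 0 over 2-fold lower. Rnase2a stood at 852 and 722 CPM against 2.81 and 5.46 CPM. Retnla stood at 1677 and 3676 CPM against 222 and 766 CPM. C4b stood at 308 and 350 CPM against 104 and 63.4 CPM, and Fxyd2, a regulator of the sodium pump, at 97.7 and 45.0 CPM against 37.9 and 19.7 CPM. Of the 55 genes that were called higher in Ccl8-high cells of tumours, 26 were over 2-fold higher in each of the 4 tumour libraries. With no floor on CPM, 4 of the 55 were over 2-fold higher in both healthy libraries, on log2(CPM + 1). They were C4b, C6, Hpse and Cxcl9, so of the 4 genes named above only C4b was among them. Cxcl9 stood at only 36.0 and 9.27 CPM against 3.04 and 0 CPM in healthy cells.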
